A study of Mus musculus with 10 samples.

Results

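The neurotrophins and their receptors were examined in the hippocampus of a mouse model of Down syndrome. The set held 7 genes chosen by name, Bdnf, Ntf3, Ntrk2, Ntrk3, Ngfr, Sort1 and Sorcs2, and each was found by its Ensembl identifier among the 43629 genes of the count table. RNA sequencing had been carried out on whole hippocampi, each library from a single mouse, and 5 Dp1Tyb mice were compared with 5 wild-type (WT) mice. Dp1Tyb mice carry the duplication Dp(16Lipi-Zbtb21)1TybEmcf, which gives a further copy of the chromosome 16 genes from Lipi to Zbtb21 in all cells, a segment orthologous to part of human chromosome 21. According to the methods of the study all mice were male and the WT mice were littermate controls, and the number of litters is not given there. The strain of the mice is labelled C57BL/6J.129P2 and their age 18 weeks, and the labels name no treatment. The methods give a slightly older age and state that all mice had been backcrossed to C57BL/6J for many generations. Because replicates were separate mice, the tests below set the genotype difference against the spread between animals. That spread includes differences in the tissue content of their libraries.

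Neurotrophins are secreted growth factors that support the survival, growth and plasticity of neurons. They are made as precursors, and cleavage of the precursor gives the mature protein. Mature neurotrophins bind the Trk receptor tyrosine kinases and the p75 receptor, whereas the precursors bind p75 together with receptors of the sortilin family. In the hippocampus, signalling from Bdnf through the receptor TrkB, the product of Ntrk2, is best known for its role in long-term potentiation. None of the 7 genes lies in the duplicated segment.

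Of the 7 genes, 0 differed between Dp1Tyb and WT hippocampus in the edgeR quasi-likelihood test with Benjamini-Hochberg adjustment over all genes, in which 1.11% of the 17237 tested genes were called at an adjusted p under 0.05 and 0.87% were called higher. All 7 genes passed the filter on low counts. DESeq2 and limma-voom also called 0 of the 7, against 3.2% and 1.08% of all genes tested by each. At an unadjusted p under 0.05, edgeR picked 0 of the 7 and 14.4% of all tested genes. In 0 of the 7 did the samples of the genotypes separate without overlap, which happened in 3.68% of all tested genes. The log2 fold change was positive in 6 of the 7 genes, against 48.7% of all tested genes, and the median over the 7 was 0.026, against −0.0041 over all tested genes. In bulk tissue, a change in the number of cells that make a transcript and a change in the transcript per cell cannot be told apart.

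The total count per library ranged from 18227684 to 43692270. The summed level of 9 marker genes used for hippocampal excitatory neurons was 2250 to 2480 CPM in WT (counts scaled to a common library size with TMM factors). It was 2310 to 2470 CPM in Dp1Tyb, and 0 of the 9 was called. A sum over these genes does not by itself establish the region dissected. Thalamus markers (5 genes) summed to 92.4 to 102 CPM in WT and 97.6 to 101 CPM in Dp1Tyb. Striatum markers (4 genes) summed to 24.9 to 29.1 CPM in WT and 24.2 to 27.8 CPM in Dp1Tyb. Libraries differed in their content of choroid plexus, the epithelium that makes cerebrospinal fluid and lies against the hippocampus. The summed level of 10 choroid plexus genes was 3870, 802, 8240, 6110 and 7450 CPM in WT replicates 1 to 5 and 194, 2230, 5610, 217 and 5510 CPM in Dp1Tyb replicates 1 to 5. The lowest were Dp1Tyb replicates 1 and 4 and WT replicate 2. None of the 10 genes was at 0 in every sample, and 0 of the 10 was called between the genotypes. Values with the choroid plexus level as a covariate and without these 3 libraries are given below.

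The ligand genes are close relatives. They share a signature in the mature protein, and its 42 coding bases are shown as an example of their likeness. Percent identity was not compared over other parts of the coding sequences. Capitals mark the 24 positions at which the 3 mouse genes shown are identical, read 5′ to 3′ on the coding strand from GENCODE transcripts of GRCm38.
Bdnf: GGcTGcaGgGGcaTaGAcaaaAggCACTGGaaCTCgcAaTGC
Ntf3: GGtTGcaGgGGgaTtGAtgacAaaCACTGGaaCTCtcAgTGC
Ntf5: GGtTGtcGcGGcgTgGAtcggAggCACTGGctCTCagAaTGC
These stretches lie in coding exons at chr2:109723991-109724032 (plus strand) in Bdnf, at chr6:126101849-126101890 (minus strand) in Ntf3 and chr7:45415911-45415952 (plus strand) in Ntf5. Over the 42 bases Bdnf was 76.2% identical to Ntf3 and 66.7% identical to Ntf5, and the latter pair were 61.9% identical to each other. Even so, 0 of the 75-base windows (the read length) of Bdnf, Ntf3 or Ntf5 transcripts occurred on the same strand in a transcript of another gene, so reads of this length could be assigned to one ligand.

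Bdnf (ENSMUSG00000048482, chr2:109674700-109727007) encodes brain-derived neurotrophic factor, the preferred ligand of TrkB. Its level in WT replicates 1 to 5 was 42.4, 46.5, 41.3, 36.7 and 39.9 CPM, and in Dp1Tyb replicates 1 to 5 it was 44.3, 44.4, 47.9, 47.0 and 41.7 CPM. Dp1Tyb samples were on the high side of the WT range and overlapped it, with WT replicate 2 above 3 of the 5 Dp1Tyb samples. WT mice averaged 41.4 ± 3.59 CPM and Dp1Tyb mice 45.1 ± 2.46 CPM (SD, n = 5 each). The log2 fold change was 0.13 ± 0.062 (SE), with an interval at 95% confidence from −0.0073 to 0.26, that is 0.995-fold to 1.20-fold, and was not significant in edgeR (unadjusted p = 0.0621, adjusted p = 0.376). Across the alternative settings it ranged from 0.08 to 0.17 and the adjusted p from 0.209 to 0.643. An antisense gene, Gm45346, overlaps 896 exonic bases of Bdnf, and 11.8% of the 75-base windows of Bdnf occur on the opposite strand in another gene. The strand setting of the counting is not given in the sources used here. Without strand, reads from Bdnf and Gm45346 cannot be told apart.

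Ntf3 (ENSMUSG00000049107, chr6:126101412-126166910) encodes the neurotrophin that prefers TrkC and, in the adult hippocampus, is best known in the dentate gyrus. Its level was 4.97, 6.28, 5.31, 5.81 and 6.30 CPM in WT replicates 1 to 5 and 6.78, 6.23, 5.96, 5.91 and 5.16 CPM in the Dp1Tyb replicates. Only Dp1Tyb replicate 1 lay above the WT samples, and WT replicate 1 was the lowest of the 10. Between the genotypes the log2 fold change was 0.07 ± 0.10 (SE; 95% interval −0.14 to 0.29; edgeR adjusted p = 0.768). The gene was covered by 98 to 296 counts per sample, and its coefficient of variation was 10.2% in WT and 9.82% in Dp1Tyb.

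Ntf5, which is outside the 7 genes and encodes the other ligand of TrkB, was lower still, with 14, 3, 11, 18 and 18 counts in the WT replicates and 9, 12, 15, 3 and 11 in the Dp1Tyb replicates. At this depth a log2 fold change of −0.55 ± 0.48 (SE; 95% interval −1.58 to 0.48; edgeR adjusted p = 0.624) spans changes in either direction. Its 3 lowest levels, 0.0909, 0.125 and 0.206 CPM, were in Dp1Tyb replicate 4, WT replicate 2 and Dp1Tyb replicate 1, the libraries with the least choroid plexus.

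**Figure D1:**
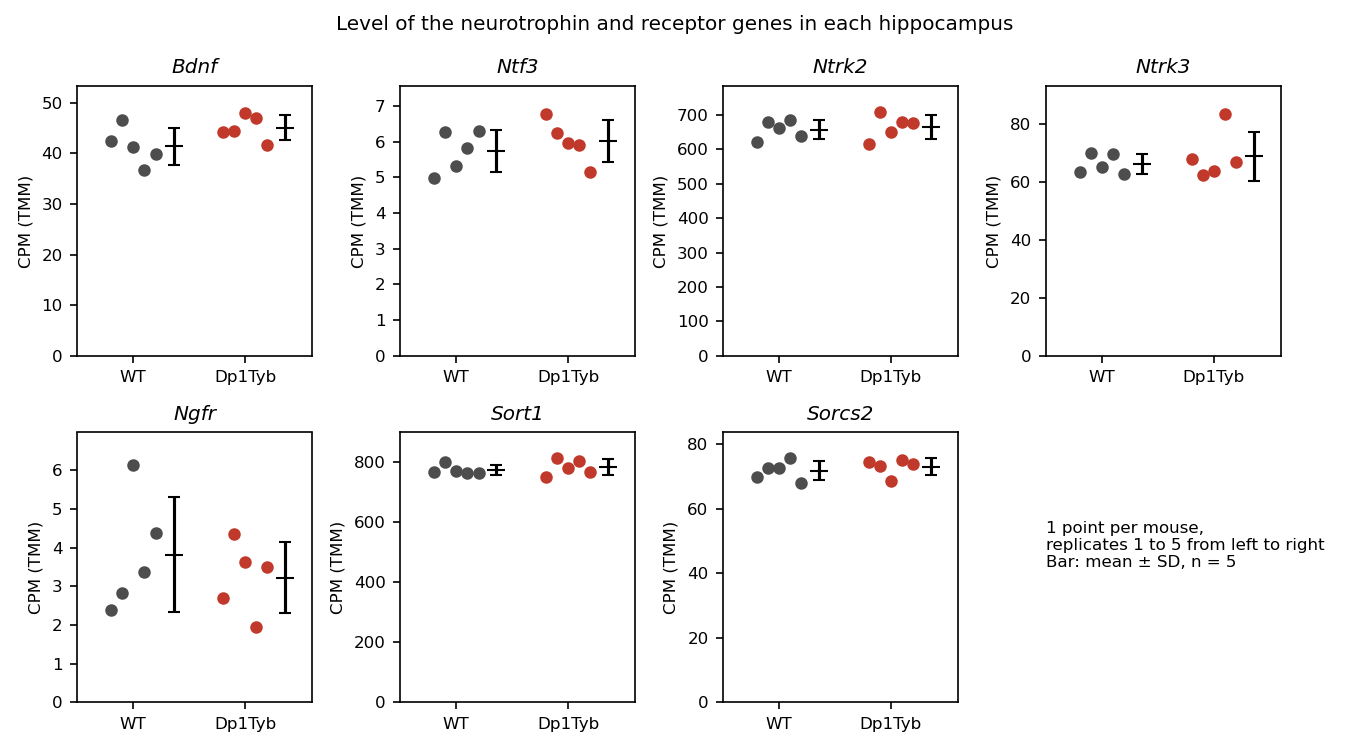
Level (CPM with TMM factors, each vertical axis from 0) of the 7 genes in each of 5 WT (grey) and 5 Dp1Tyb (red) hippocampi, with the mean and SD beside the points. The genotypes overlap in every panel, Ngfr has the widest spread, and Dp1Tyb replicate 4 stands above the other samples for Ntrk3 at 83.6 CPM.

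Ntrk2 (ENSMUSG00000055254, chr13:58806569-59133970) encodes TrkB. The annotation holds coding transcripts of 1398 to 2463 coding bases for it, which include the truncated receptor without a kinase domain, and the gene counts sum all of them. Its level was 620, 680, 662, 684 and 638 CPM in WT replicates 1 to 5 and 615, 708, 650, 679 and 677 CPM in the Dp1Tyb replicates. The lowest and the highest of the 10 samples were both Dp1Tyb, so the WT range lay inside the Dp1Tyb range. The Ntrk2 difference was 0.02 ± 0.046 (log2, with SE; edgeR adjusted p = 0.878), and its 95% interval allowed a level in Dp1Tyb from 0.946-fold to 1.09-fold of WT. Its sign turned when WT replicate 1 was left out (−0.0012) or Dp1Tyb replicate 2 was left out (−0.0042). Astrocytes are known to make much of the truncated form. The summed level of 6 astrocyte markers was 1910 to 2250 CPM in WT and 2130 to 2280 CPM in Dp1Tyb. Of the 6, 1 was called, where 1.11% of all tested genes were called. It was Gfap, an intermediate filament gene of astrocytes named here after its values were seen, which was higher (log2 fold change 0.26 ± 0.047, edgeR adjusted p = 0.0167). The part of these cells in the Ntrk2 level was not tested.

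Ntrk3 (ENSMUSG00000059146, chr7:78175959-78738012) encodes TrkC, the receptor for the Ntf3 product. It was at 63.6, 70.1, 65.2, 69.8 and 63.0 CPM in WT replicates 1 to 5 and at 68.1, 62.6, 63.7, 83.6 and 66.9 CPM in the Dp1Tyb replicates. A single sample, Dp1Tyb replicate 4, was above the WT range, replicate 2 was just under it, and the other 3 lay within it. For all 10 samples the log2 fold change was 0.06 ± 0.072 (SE; 95% interval −0.097 to 0.21; edgeR adjusted p = 0.745). Without Dp1Tyb replicate 4 it was −0.02 ± 0.047, and without the 3 libraries lowest in choroid plexus, of which that sample is one, it was −0.03 ± 0.053. With the choroid plexus level as a covariate it was −0.02 ± 0.065.

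Ngfr (ENSMUSG00000000120, chr11:95568818-95587735) encodes p75, which binds all neurotrophins and, with a sortilin family partner, their precursors. Its level was 2.39, 2.83, 6.13, 3.36 and 4.38 CPM in WT replicates 1 to 5 and 2.70, 4.34, 3.64, 1.94 and 3.51 CPM in the Dp1Tyb replicates, from 64 to 124 counts per sample. WT replicate 3 was the highest and Dp1Tyb replicate 4 the lowest, with the other 8 samples mixed. Ngfr was the most variable of the 7 genes, with a coefficient of variation of 39.0% in WT and 28.7% in Dp1Tyb. Its log2 fold change was −0.23 ± 0.26 (SE; edgeR adjusted p = 0.715), and the 95% interval of −0.79 to 0.33 covers a level from 0.580-fold to 1.25-fold of WT. Over the 18 alternative settings the value ran from −0.37 to 0.09.

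The Ngfr level was set beside the choroid plexus content, and a link between them was not tested. WT replicates 3 and 5, the libraries richest in choroid plexus genes, were also the richest in Ngfr, and Dp1Tyb replicate 4, with 217 CPM of choroid plexus genes, had the least Ngfr. Other samples did not follow this order. WT replicate 1, with 3870 CPM of choroid plexus genes, had less Ngfr (2.39 CPM) than Dp1Tyb replicate 1 (2.70 CPM), the library with the lowest choroid plexus level, and Dp1Tyb replicate 2, with 2230 CPM, had 4.34 CPM of Ngfr. With the choroid plexus level as a covariate the Ngfr log2 fold change was 0.09 ± 0.22 (edgeR adjusted p = 0.917), and without the 3 poorest libraries it was −0.04 ± 0.26 (edgeR adjusted p = 0.967). The Ntf5 value went from −0.55 to 0.15 ± 0.31 with the covariate and to −0.23 ± 0.32 without the 3 libraries. For Bdnf the corresponding values were 0.09 ± 0.064 and 0.15 ± 0.067, so its sign did not turn. With the covariate and without the 3 libraries, in that order, they were 0.01 ± 0.11 and 0.05 ± 0.13 for Ntf3, 0.03 ± 0.050 and 0.05 ± 0.050 for Ntrk2, 0.01 ± 0.041 and 0.03 ± 0.043 for Sort1, and 0.006 ± 0.046 and 0.00015 ± 0.053 for Sorcs2. Among the related receptors they were 0.03 ± 0.056 and 0.10 ± 0.043 for Sorl1 and 0.25 ± 0.19 and 0.08 ± 0.22 for Nradd. None of these was called. Meningeal and fibroblast markers also varied between libraries, with a summed level of 95.5 to 383 CPM over 7 genes in WT and 137 to 286 CPM in Dp1Tyb. Of the 7, 0 was called and none was at 0 in every sample, and their part in the Ngfr level was not tested. Of 4 Schwann cell markers, Pmp2 had at most 3 counts in every sample. The filter was passed by 2 of the 4. Of these, 1 was called, Prx, also named after its values were seen, where 1.11% of all tested genes were called. Prx was higher in Dp1Tyb, with 5.08 CPM against 3.63 CPM in WT (log2 fold change 0.48 ± 0.10, edgeR adjusted p = 0.0401). The summed level of the 4 was 3.96 to 5.20 CPM in WT and 5.25 to 6.58 CPM in Dp1Tyb. Of single tested genes, 3.68% had no overlap between the genotypes. The part of the Schwann cell markers in the Ngfr level was not tested.

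**Figure D2:**
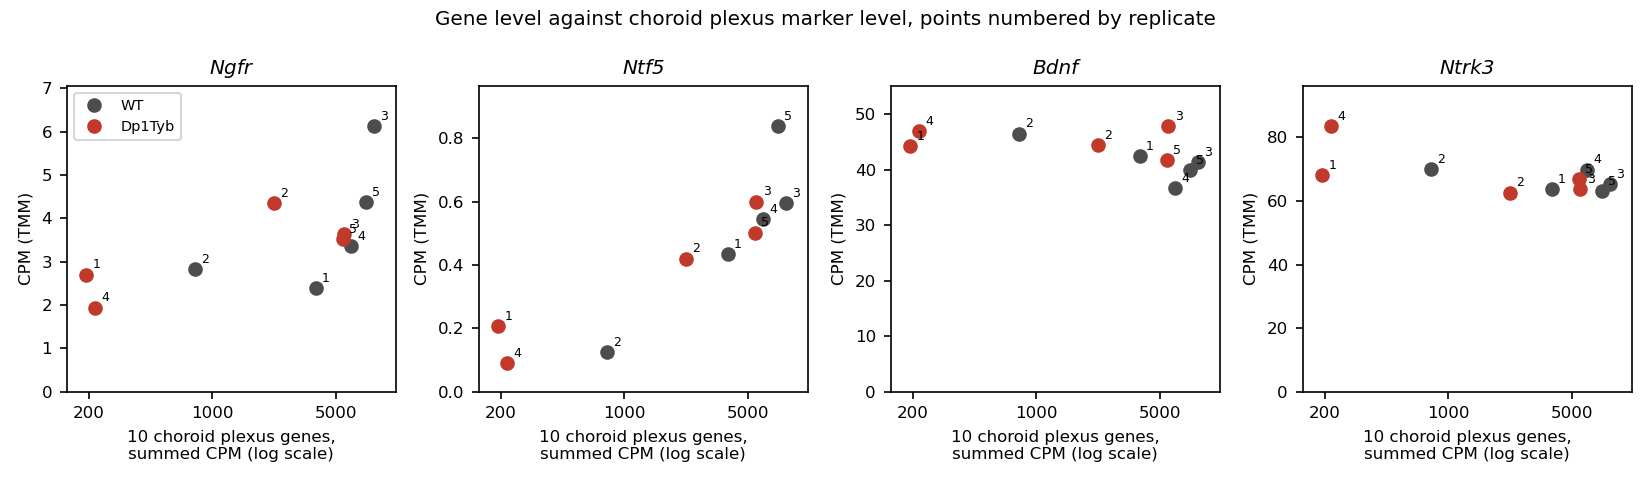
Level of Ngfr, Ntf5, Bdnf and Ntrk3 (CPM, vertical axis from 0) against the summed CPM of 10 choroid plexus genes (log scale) in each library, WT in grey and Dp1Tyb in red, numbered by replicate. Ngfr and Ntf5 are low in the libraries at 194 and 217 CPM of choroid plexus genes. Ngfr is highest in the library at 8240 CPM and Ntf5 in that at 7450 CPM. Bdnf is at 44.3, 47.0 and 46.5 CPM in the 3 libraries lowest in choroid plexus and at 36.7 to 47.9 CPM in the others. The high Ntrk3 sample is Dp1Tyb replicate 4.

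Sort1 (ENSMUSG00000068747, chr3:108284082-108361511) encodes sortilin, a sorting receptor that binds precursor neurotrophins and joins p75 at the cell surface. Its level was 769, 802, 772, 765 and 764 CPM in WT replicates 1 to 5 and 753, 815, 783, 804 and 768 CPM in the Dp1Tyb replicates. Sort1 was the steadiest of the 7 genes, with a coefficient of variation of 2.02% in WT and 3.23% in Dp1Tyb. The Dp1Tyb samples again included both the lowest and the highest of the 10. The Sort1 difference was 0.02 ± 0.037 (log2, with SE; edgeR adjusted p = 0.847), with a 95% interval from 0.959-fold to 1.07-fold. The antisense gene Gm12523 shares 338 exonic bases with Sort1 but had 1 to 6 counts per sample.

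Sorcs2 (ENSMUSG00000029093, chr5:36017180-36398139) encodes a sortilin family receptor that also pairs with p75 and with TrkB. Levels were 69.8, 72.7, 72.7, 75.7 and 68.1 CPM in WT and 74.6, 73.4, 68.6, 75.1 and 73.8 CPM in Dp1Tyb, replicates 1 to 5. All Dp1Tyb samples lay inside the WT range. Its log2 fold change was 0.03 ± 0.041 (SE; edgeR adjusted p = 0.799), with a 95% interval from 0.958-fold to 1.08-fold.

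Among the relatives of these receptors, 0 of 6 tested ligand and receptor genes outside the 7 were called. Sorcs1, a sortilin family gene, had the smallest unadjusted p, with levels of 16.4 to 19.1 CPM in WT and 17.9 to 21.0 CPM in Dp1Tyb and a log2 fold change of 0.17 ± 0.064 (SE; edgeR unadjusted p = 0.0230, adjusted p = 0.273). It was the only one of the 6 at an unadjusted p under 0.05. Sorcs3 had a log2 fold change of 0.10 ± 0.055 (edgeR adjusted p = 0.446) and Sorl1, the sorting receptor SorLA, one of 0.05 ± 0.051 (edgeR adjusted p = 0.710). Nradd, a relative of p75 without its ligand-binding part, had 23 to 49 counts per sample and a log2 fold change of 0.07 ± 0.18 (edgeR adjusted p = 0.900).

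To compare levels between genes, counts were also divided by exon length (RPKM, CPM per kilobase of exon). Sort1 was the highest, at 102 ± 2.07 RPKM in WT and 104 ± 3.35 RPKM in Dp1Tyb (SD, n = 5), above 98.4% of tested genes. Sorl1 followed at 39.7 and 41.0 RPKM, then Ntrk2 at 34.0 and 34.5 RPKM. A lower tier held Sorcs2 (8.16 RPKM in WT and 8.31 RPKM in Dp1Tyb), Sorcs3 (7.36 and 7.86 RPKM) and Bdnf (6.65 and 7.25 RPKM), whose neighbours in this order overlapped over the 10 samples. Ntf3 came next (3.35 and 3.50 RPKM), followed by Ntrk3 (2.20 and 2.29 RPKM) and Sorcs1 (2.11 and 2.36 RPKM), which overlapped. Ngfr (1.11 and 0.936 RPKM) could not be separated from Nradd (0.701 and 0.739 RPKM), and Ntf5 (0.192 and 0.137 RPKM) was last. Sort1, Sorl1, Ntrk2 and the tier from Sorcs2 down were apart in all 10 samples, as were Bdnf and Ntf3, Ntf3 and Ntrk3, Sorcs1 and Ngfr, and Nradd and Ntf5.

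Ratios between genes were taken on the RPKM scale within each sample. The ratio of Ntrk2 to Ntrk3 had a median of 15.3 in WT (15.2 to 15.9) and 15.8 in Dp1Tyb (12.7 to 17.7), with the lowest value in Dp1Tyb replicate 4. The ratio of Ntrk2 to Ngfr ranged from 19.3 to 46.3 in WT and from 29.2 to 62.5 in Dp1Tyb. Bdnf exceeded Ntf3 by a median of 2.04 in WT and 2.19 in Dp1Tyb. These ratios depend on the exon length used, which was the union over all transcripts, 19292 bases for Ntrk2 and 30170 bases for Ntrk3 against 1714 bases for Ntf3. Where most transcripts are shorter than the union, RPKM understates the level of the gene.

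**Figure D3:**
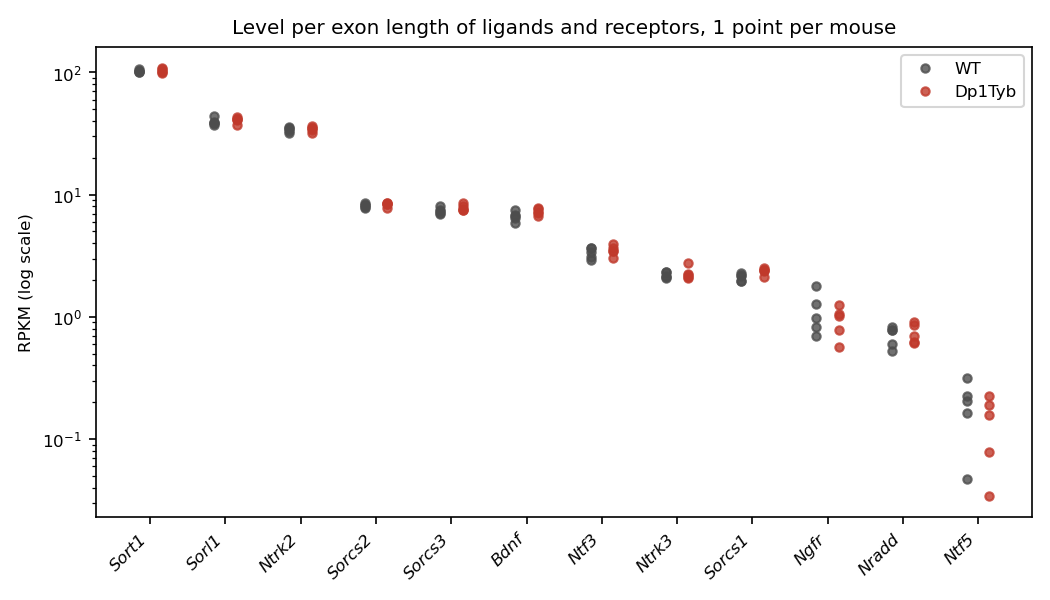
Level per exon length (RPKM, log scale) of 12 ligand and receptor genes in each WT (grey) and Dp1Tyb (red) hippocampus, in order of the mean over all samples. Sort1 is near 103 RPKM, Ntrk2 near 34.3 RPKM, Bdnf near 6.95 RPKM and Ntf5 near 0.164 RPKM, and the genotypes overlap for every gene.

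Precision was better for the abundant receptors than for p75. In this fit the upper bound of the 95% interval was below 0.585, the log2 value of a 1.5-fold change, for all 7 genes, and their highest upper bound was 0.33 for Ngfr. The Ngfr bound depends on the fit, since its value was higher with the choroid plexus covariate (0.09 ± 0.22) and without the 3 libraries (−0.04 ± 0.26). The lower bound was 0.906-fold of WT or higher for every gene of the 7 but Ngfr (0.580-fold). Genes that do lie in the duplicated segment were read in the same fit for comparison. Of 6 duplicated genes linked to neurotrophin signalling or to the endocytic traffic of its receptors, all 6 were called higher, against 0.87% of all tested genes. These 6 were chosen by name from the 250 duplicated genes of the count table. They do not give the typical size over the segment. Tiam1, which activates Rac downstream of TrkB, was at 139 to 154 CPM in WT and 191 to 211 CPM in Dp1Tyb (log2 fold change 0.44 ± 0.039, edgeR adjusted p = 2.42e-05). App, the amyloid precursor protein gene, went from 1540 to 1670 CPM in WT to 2520 to 2620 CPM in Dp1Tyb (0.69 ± 0.042, edgeR adjusted p = 7.47e-07). The log2 fold change was 0.60 for Dyrk1a, a protein kinase, 0.56 for Rcan1, an inhibitor of calcineurin, 0.48 for Itsn1, an endocytic scaffold, and 0.64 for Synj1, a lipid phosphatase of synaptic vesicle recycling. In none of the 6 did samples of the genotypes overlap, against 3.68% of all tested genes without overlap, and the median of the 6 was 0.58.

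**Figure D4:**
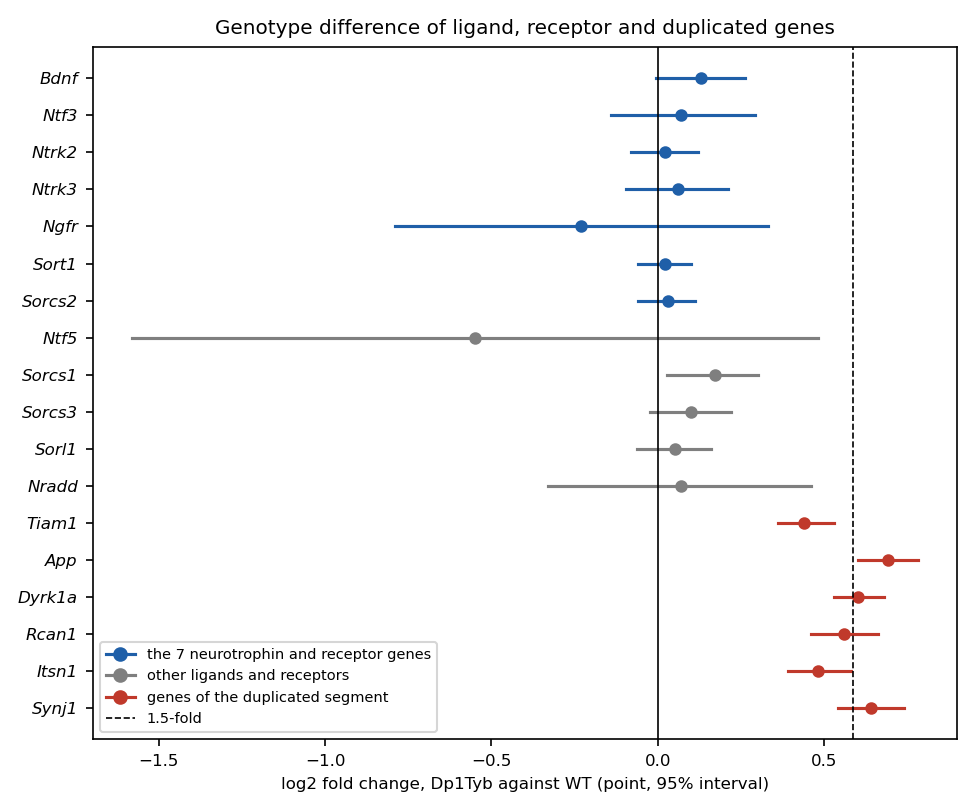
Log2 fold change of Dp1Tyb against WT with its 95% interval for the 7 genes (blue), other ligands and receptors (grey) and 6 genes of the duplicated segment (red), with a dashed line at 1.5-fold. The intervals of the 7 genes include 0 and end at or below 0.33 in this fit, and those of Ngfr and Ntf5 are the widest.

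The rest of the pathway was read from lists of genes outside the duplication that process the ligands, carry the signal or respond to it. Of 103 listed genes other than the 7, 101 were tested, 1 was called higher and 0 lower, where 1.11% of all tested genes were called, and the median log2 fold change was 0.0055. At an unadjusted p under 0.05 there were 12 higher and 6 lower, where 14.4% of all tested genes passed, and in 4 the samples of the genotypes did not overlap, where 3.68% of all tested genes did so. These counts are near the shares over all tested genes. DESeq2 and limma-voom each called 1 gene as well.

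The called gene was Cadps2, which encodes a factor for dense-core vesicle release that is known to promote secretion of Bdnf. Its level was 98.6, 96.8, 99.5, 101 and 89.4 CPM in WT replicates 1 to 5 and 113, 117, 125, 131 and 106 CPM in the Dp1Tyb replicates. Every Dp1Tyb sample was above every WT sample. The log2 fold change was 0.29 ± 0.056 (SE; edgeR adjusted p = 0.0252). The direction held in all 18 alternative settings, with values of 0.24 to 0.32, but the adjusted p ranged from 0.00047 to 0.148. The call was lost without WT replicate 1, 2, 4 or 5 (0.0517, 0.0649, 0.0520 and 0.0646), without Dp1Tyb replicate 2 or 3 (0.0658 and 0.0773), with the choroid plexus covariate (0.0650) and without the 3 libraries lowest in choroid plexus (0.148).

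The lists are given 1 by 1, and over all tested genes 48.7% had a positive value and 1.11% were called. Of 13 tested genes for processing and release, 7 had a positive value, and besides Cadps2 none was called. Of 21 adaptors and enzymes next to the Trk receptors, 11 were positive and 0 called, and Sos1, the exchange factor that activates Ras, had the smallest p (0.14 ± 0.043, edgeR adjusted p = 0.166). Of 12 effectors of p75, 6 were positive and 0 called, with Rtn4r, the Nogo receptor that pairs with p75, at −0.18 ± 0.057 (edgeR adjusted p = 0.186). Of 27 kinases and small GTPases of the Ras-MAPK, PI3K-Akt and calcium branches, 16 were positive and 0 called. Map2k1, a MAP kinase kinase, led this list with 289 to 323 CPM in WT and 325 to 350 CPM in Dp1Tyb (0.13 ± 0.039, edgeR adjusted p = 0.146), and it was 1 of 3 genes of the list without overlap between the genotypes, against 3.68% of all tested genes.

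Of 11 transcription regulators of Bdnf, 2 had a positive value and 0 was called, and the median log2 fold change was −0.063. Over all tested genes, 48.7% had a positive value, 1.11% were called and the median was −0.0041. At an unadjusted edgeR p under 0.05, 0 of the 11 regulators were higher and 1 lower, where 14.4% of all tested genes passed. The smallest p in this list was that of Usf2, a factor known to bind a Bdnf promoter (−0.12 ± 0.050, edgeR adjusted p = 0.293). Of 11 genes known to be induced by neurotrophins, 7 were positive and 0 called. Nptx2, a secreted pentraxin of excitatory synapses, had the smallest p, with 18.8 to 23.9 CPM in WT and 22.3 to 28.8 CPM in Dp1Tyb (0.21 ± 0.078, edgeR adjusted p = 0.248). In the plot of fold changes by list, the medians of the lists outside the duplication lay near 0 and the duplicated genes stood apart from them.

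**Figure D5:**
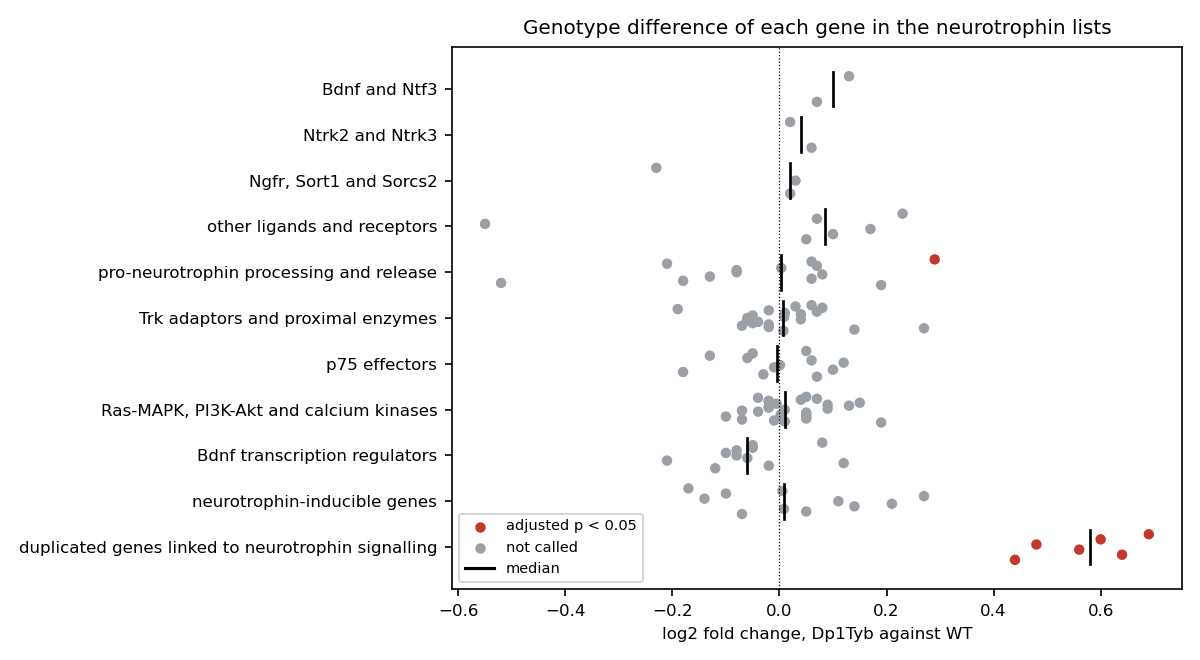
Log2 fold change of Dp1Tyb against WT for each tested gene of the neurotrophin lists, 1 point per gene, with a bar at the median of each list and red points for an adjusted p under 0.05. Outside the duplicated genes, with a median of 0.58, the only red point is Cadps2 at 0.29.

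For each of the 7 genes, the 3 protein-coding genes with the most similar variation were listed from 13771 candidates, by Pearson's r over 10 samples of log2 CPM taken as deviations from the mean of the own genotype. The nearest to Bdnf were Il1rap (r = 0.941), Nucks1 and Arl8b, and to Ntf3 they were Ogg1 (r = 0.934), Ptpn12 and Gtf2e2. The nearest to Ntrk2 were Luzp2 (r = 0.943), Ppp1r3c and Pdpr, and to Ntrk3 they were Camk4 (r = 0.953), Fam126b and Pdpk1. Ngfr was nearest to Gpx4 (r = 0.955), 2310022B05Rik and Hadh, Sort1 to Zfp184 (r = 0.955), Nell1 and Plat, and Sorcs2 to Rap1gap2 (r = 0.961), Ehbp1l1 and Adcyap1r1. Of these, Camk4, Pdpk1 and Plat were also on the pathway lists. The values are maxima over many candidates in few samples that share library depth and tissue content, so they describe these 10 libraries alone.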

How the data were processed

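The authors prepared stranded mRNA libraries (75-base paired ends), trimmed reads with TrimGalore, mapped them to GRCm38 with TopHat 2.0.12, discarded reads with several alignments and ran htseq-count on Ensembl genes. The deposited counts are whole reads per gene and are not normalized. The strand setting and annotation release are not given in the sources used here. Deposited tables of normalized values and of the authors' own comparison (fold changes and p-values) were not used. Samples were grouped by labelled genotype, and genes were matched to GENCODE M21 (42548 of 43629, with the 1081 others holding 0.103% of counts).

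Genotype was tested on all 10 samples with edgeR 4.0.16 in R 4.3.3 (quasi-likelihood F-test, TMM, filterByExpr, no covariates, Benjamini-Hochberg adjustment over 17237 genes, threshold 0.05, two-sided). The pipeline was tested on simulated data with 200 genes changed 1.5-fold. There edgeR recovered 60.0% of the changed genes and 4.0% of its calls were false. For DESeq2 these shares were 64.0% and 17.9%, and for limma-voom 59.5% and 4.8%. The SE is the one that gives the test statistic. Alternatives were DESeq2 1.42.0, limma-voom 3.58.1, RLE size factors, no filter, a filter of 1 CPM in 5 samples, a replicate block, a choroid plexus covariate and leaving out each sample. Leaving out the 3 libraries lowest in choroid plexus was added after seeing the data. RPKM used the union of exons. No 2 libraries agreed within sampling noise (smallest chi-square per degree of freedom 4.886 over 45 pairs). Labels give no batch. Genes, lists and tests were chosen with earlier results of these data known. Named genes were the 7 genes, the other ligands and receptors, the duplicated genes, each called gene of a list or otherwise that with the smallest p, and the 3 genes most alike in variation. Some genes of the lists entered the counts but are not reported here by name.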

Additional observations from a re-analysis of the deposited data

Results flagged for a closer look

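Within each genotype, the highest or lowest sample of every named gene was compared with its nearest neighbour, and a gap of over 0.71 of the range of the 5 samples marked it as standing apart. Of 52 groups of 5 samples, 3 had such a sample, where chance alone gives about 2.6. Ntrk3 was at 83.6 CPM in Dp1Tyb replicate 4, with the other Dp1Tyb samples at 62.6 to 68.1 CPM. Sort1 was at 802 CPM in WT replicate 2, with the other WT samples at 764 to 772 CPM. Sorcs2 was at 68.6 CPM in Dp1Tyb replicate 3, with the other Dp1Tyb samples at 73.4 to 75.1 CPM. Dp1Tyb replicate 4 and WT replicate 2 are also among the 3 libraries lowest in choroid plexus genes, with 217 and 802 CPM in sum.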

How the results depend on the processing

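The count of neurotrophin and receptor genes called stayed at 0 of 7 and that of duplicated genes at 6 of 6 under each of the 18 alternatives. Of the fold changes of the 7 genes under these alternatives, 120 kept their direction and their side of the threshold and 6 turned sign without passing it. These were Ntrk2 without WT replicate 1 (−0.0012) and without Dp1Tyb replicate 2 (−0.0042), Ntrk3 with the choroid plexus covariate (−0.02), without Dp1Tyb replicate 4 (−0.02) and without the 3 libraries lowest in choroid plexus (−0.03), and Ngfr with the covariate (0.09). Of the other named genes, Ntf5 turned sign with the covariate (0.15) and Nradd without WT replicate 2 (−0.02) and without Dp1Tyb replicate 5 (−0.01), and the Cadps2 call was lost in 8 alternatives. The count of pathway genes called outside the duplication, 1 in the reported fit, was 0 with the covariate, 0 without the 3 libraries and 0 to 1 when single samples were left out. The count over all tested genes, 191 in the reported fit, was 507 with DESeq2, 315 with the replicate block, 108 without the 3 libraries and 105 to 218 when single samples were left out. The cause of these shifts was not tested. Ntf5 did not pass the filter of 1 CPM in 5 samples, so it has no value there.

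Same-numbered samples of the genotypes did not deviate together in every pair (correlation of deviations 0.192, −0.057, 0.211, −0.076 and 0.269 for replicates 1 to 5). Only replicate 1 correlated best with its own number, though WT replicates 3 and 5 came near their highest values (0.288 and 0.294). Tissue content also enters these correlations, so they cannot decide whether equal numbers mark paired mice. With the replicate block, 0 of the 7 genes were called, 1 pathway gene was called, all 6 duplicated genes were called, and the log2 fold changes were 0.13 for Bdnf, 0.05 for Ntrk3 and −0.21 for Ngfr.

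Depth limits what could be seen for Ngfr (64 to 124 counts per sample) and Ntf5 (3 to 18 counts). For Ngfr the interval includes a level of 0.580-fold of WT, and no other gene of the 7 has an interval that wide. Counts per gene do not separate full-length from truncated receptors, or precursor from mature ligand.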
